A study of Homo sapiens with 4 samples.

Results

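Chromosome 1 was followed along both of its arms in bins of 40 kb, as far as both cell lines had a value there. Its bins were placed by position into distal 1p, proximal 1p and 1q. Distal 1p is the outer short arm, ending at 60000000. Proximal 1p runs from there to the last bin within a limit of 121.5 Mb, near the centromeric gap, and ends at 121480000. 1q is the long arm, from 142520001. These 3 segments held 1481, 1532 and 2633 bins, 5646 of the 71436 common bins of 40 kb in the genome. Positions are in hg19 and counted from 1. The chromosome and its limits were selected on the log2 enrichment of these same bins, so the levels of the segments, and the states called from them, describe the choice and support nothing beyond it.

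The study profiled lamin B1 in 2 prostate cancer cell lines by ChIP-seq, in which DNA bound to a protein is recovered with an antibody and sequenced. LNCaP is an established line whose labels give prostate adenocarcinoma as the tissue, and VCaP is an established line labelled as bone metastatic prostate cancer. Both were grown to near confluence with serum and no other agent, fixed with formaldehyde and sonicated, and each gave 1 library made with a lamin B1 antibody and 1 input library made without antibody. The deposited value of a bin is the log2 ratio of the lamin B1 library to the input library of the same line. At 0 the libraries are equal after a scaling that is not given, so 0 need not be the absence of enrichment. A deposited state, from a hidden Markov model per the name of the table, splits the bins into those associated with lamin B1 and the rest. With 1 library pair per line, nothing below has a replicate check and no p-value is given. The assay holds no expression values, so the identity of the lines could not be checked against markers.

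Lamin B1 is a filament protein of the nuclear lamina, the mesh that lines the inner nuclear membrane. Chromatin that touches this mesh forms lamina-associated domains, long stretches that in most cell types are poor in genes, late in replication and low in transcription, and that lie apart from gene-rich chromatin in the nuclear interior. Chromosome 1, the longest human chromosome, holds both kinds of sequence. Its outer short arm, with band 1p36, is among the gene-dense parts of the genome and carries genes such as ARID1A, a subunit of a chromatin remodeller. The inner short arm holds long gene-poor stretches with large neuronal genes such as NEGR1 and LRRC7, as well as DPYD, which breaks down pyrimidines, and the amylase genes. The long arm carries the epidermal differentiation complex in 1q21, the complement factor H family in the otherwise gene-poor 1q31, the prostate gene SLC45A3 in 1q32, and olfactory receptor genes in 1q44. These genes are named for orientation only: an annotation of hg19 was not used here, so no bin was assigned to a gene and gene density was not tested.

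The order of the segments differed between the lines. Distal 1p had the highest median log2 enrichment of the segments in VCaP and, by a small margin, the lowest in LNCaP. In VCaP the median was 0.52 in distal 1p (interquartile range over bins 0.23 to 0.83), -0.02 in proximal 1p (-0.25 to 0.18) and 0.21 in 1q (-0.09 to 0.49). In LNCaP the median was 0.04 in distal 1p (-0.20 to 0.23), 0.10 in proximal 1p (-0.05 to 0.32) and 0.30 in 1q (0.11 to 0.53). The interquartile ranges of distal and proximal 1p did not overlap in VCaP and overlapped widely in LNCaP. The bins of all other chromosomes had a median of 0.05 in LNCaP (-0.17 to 0.31) and 0.19 in VCaP (-0.11 to 0.50).

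**Figure D1:**
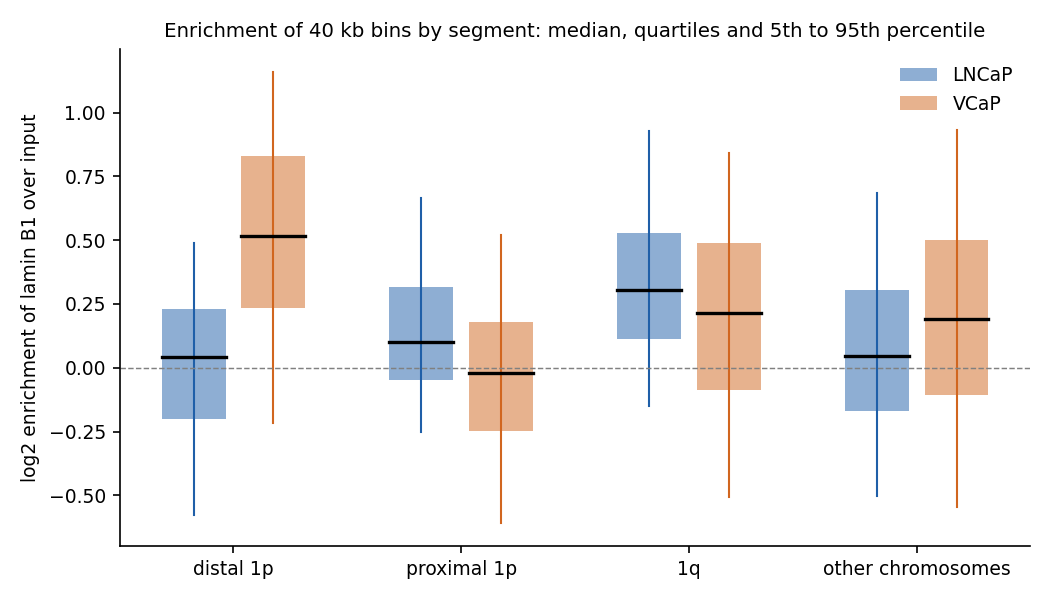
Log2 enrichment of lamin B1 over input (vertical axis) in distal 1p, proximal 1p, 1q and all other chromosomes, for LNCaP (blue) and VCaP (orange), 1 library pair each. Black lines are medians over 40 kb bins, boxes the quartiles and thin lines the 5th to 95th percentile; VCaP stands highest in distal 1p (median 0.52) and LNCaP in 1q (median 0.30).

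Within a line the segments come from the same pair of libraries, so a shift of the zero point cancels in their differences. Proximal 1p lay 0.54 log2 units below distal 1p in VCaP (difference of medians -0.54), against 0.06 above it in LNCaP. The LNCaP value rested on 1 stretch of distal 1p, described below, and was -0.02 without it. 1q lay 0.26 above distal 1p in LNCaP and differed from it by -0.30 in VCaP. Only 1q against proximal 1p went the same way in the lines, with 1q higher by 0.20 in LNCaP and by 0.23 in VCaP. The noise of a single bin, the SD estimated from the differences between neighbouring bins, was 0.07 in LNCaP and 0.11 in VCaP over all common bins. Neighbours share averaged entries, which makes this estimate low. From bins 3 apart it was 0.15 in LNCaP and 0.22 in VCaP. Within the segments the noise from neighbouring bins was 1.02, 1.00 and 1.06 times its value over all common bins in LNCaP. In VCaP it was 1.19, 0.97 and 1.07 times, in the order distal 1p, proximal 1p and 1q.

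The deposited states gave the same order. Distal 1p was associated in 473 of 1481 bins in LNCaP (31.9%) and in 1120 bins in VCaP (75.6%). Over all common bins of the genome, 37.9% were associated in LNCaP and 44.4% in VCaP. Proximal 1p was associated in 605 of 1532 bins in LNCaP (39.5%) and in 234 in VCaP (15.3%). 1q was associated in 1960 of 2633 bins in LNCaP (74.4%) and in 1190 in VCaP (45.2%). Since the state is called from the same values, it repeats the levels and adds no separate measure. Enrichment over 0 is a looser call, passed by 56.9% of common bins in LNCaP and 66.9% in VCaP. It held for 55.3%, 67.0% and 85.8% of bins of distal 1p, proximal 1p and 1q in LNCaP, and for 87.7%, 47.2% and 68.8% in VCaP.

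The difference between the lines had opposite signs in distal 1p and in the other segments. The median VCaP minus LNCaP difference per bin was 0.50 in distal 1p (interquartile range 0.20 to 0.83), -0.15 in proximal 1p (-0.39 to 0.06) and -0.13 in 1q (-0.41 to 0.13). VCaP was above LNCaP by any amount in 85.8% of distal 1p bins, 31.7% of proximal 1p bins and 37.3% of 1q bins. A difference counted as beyond noise when it passed 0.54, which is 2 noise SDs of a bin's difference. VCaP was higher beyond noise in 682 distal 1p bins (46.0%), against 19.1% of all common bins, and LNCaP was higher in 18 (1.22%), against 7.89%. In proximal 1p the counts were 33 bins with VCaP higher (2.15%) and 219 with LNCaP higher (14.3%). In 1q they were 95 (3.61%) and 413 (15.7%). The VCaP median over all common bins lay 0.13 above that of LNCaP, so the size of a difference moves with the zero point chosen. After each line was centred on its own median, the differences were 0.37 in distal 1p, -0.28 in proximal 1p and -0.26 in 1q, and VCaP was higher beyond noise in 34.8% of distal 1p bins.

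Each bin fell into 1 of 4 classes by its state in the lines. In distal 1p the largest class was VCaP only, with 767 bins (51.8%), against 23.8% of all common bins. Another 353 distal 1p bins (23.8%) were associated in both lines, 120 (8.10%) in LNCaP only and 241 (16.3%) in neither; over all common bins these classes held 20.6%, 17.2% and 38.4%. In proximal 1p the largest class was neither line, with 826 bins (53.9%), followed by LNCaP only with 472 (30.8%), both lines with 133 (8.68%) and VCaP only with 101 (6.59%). In 1q, 1023 bins (38.9%) were associated in both lines, 937 (35.6%) in LNCaP only, 506 (19.2%) in neither and 167 (6.34%) in VCaP only. The overlap was lopsided, because the lists differ in size. In 1q it made up 86.0% of the VCaP bins and 52.2% of the LNCaP bins, whereas in distal 1p it made up 31.5% of the VCaP bins and 74.6% of the LNCaP bins. In proximal 1p it made up 56.8% of the VCaP bins and 22.0% of the LNCaP bins. Over all bins of 1q the associated shares were 74.4% in LNCaP and 45.2% in VCaP. They were 31.9% and 75.6% in distal 1p, and 39.5% and 15.3% in proximal 1p. Set against the share of the other line, the overlap was near it in distal 1p and above it in 1q and proximal 1p.

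**Figure D2:**
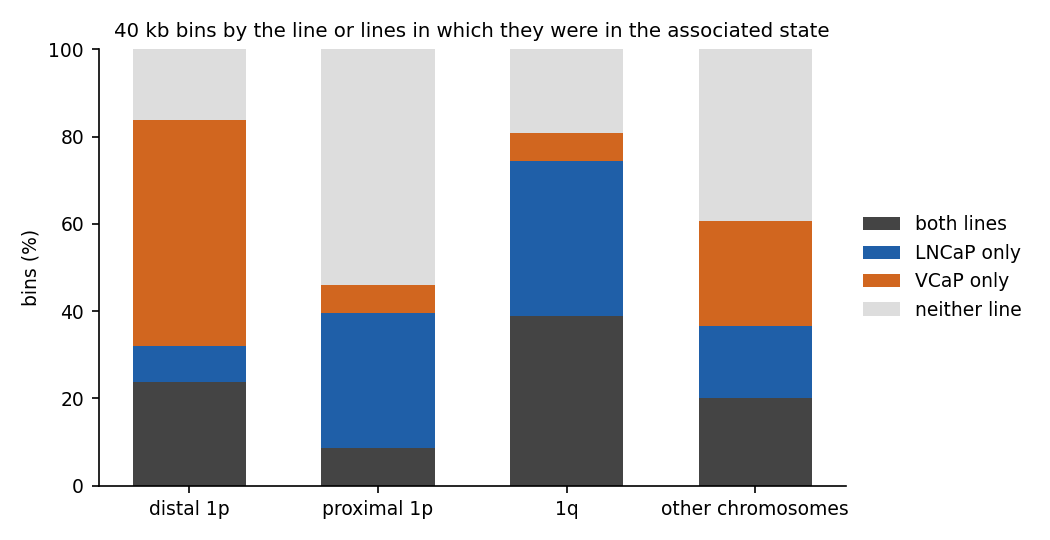
Percent of 40 kb bins (vertical axis) of distal 1p, proximal 1p, 1q and all other chromosomes that were in the associated state in both lines, LNCaP only, VCaP only or neither line. VCaP-only bins fill 51.8% of distal 1p, bins of neither line 53.9% of proximal 1p, and bins of both lines 38.9% of 1q.

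Means over windows of 5 Mb show where along the arms the levels change. In distal 1p, VCaP ran from high at the chromosome end to low at the inner limit. Its 2 highest windows were 0 to 5 Mb, with a mean of 0.95 (SD over bins 0.42), and 15 to 20 Mb, with 0.71 (0.31). Its 2 lowest were 50 to 55 Mb, with 0.18 (0.40), and 55 to 60 Mb, with 0.21 (0.30). Between 0 and 45 Mb the associated share of VCaP was 76.0% or more in each window, and from 45 to 60 Mb it was 48.8%, 34.4% and 26.4%. So the fall began before the limit of 60 Mb, and the bins on either side of that limit were alike. The 5 bins below it had medians of 0.01 in both LNCaP (-0.04 to 0.09) and VCaP (-0.08 to 0.06), and the 5 bins above it had medians of 0.03 (-0.08 to 0.12) and 0.04 (0.02 to 0.13).

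LNCaP did not follow that slope. Its 2 highest distal 1p windows, at 30 to 35 Mb and 55 to 60 Mb, both had a mean of 0.21 (SD over bins 0.26 and 0.19). Its 2 lowest were 20 to 25 Mb, with -0.45 (0.16), and 15 to 20 Mb, with -0.42 (0.22). VCaP had means of 0.46 and 0.71 in those low windows. VCaP was the higher line in 11 of the 12 distal 1p windows, and at 55 to 60 Mb the line means differed by less than 0.01. The difference was greatest at 15 to 20 Mb, where it came to 1.13, which ranked 4 from the top among the 551 windows of the genome with at least 100 bins.

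**Figure D3:**
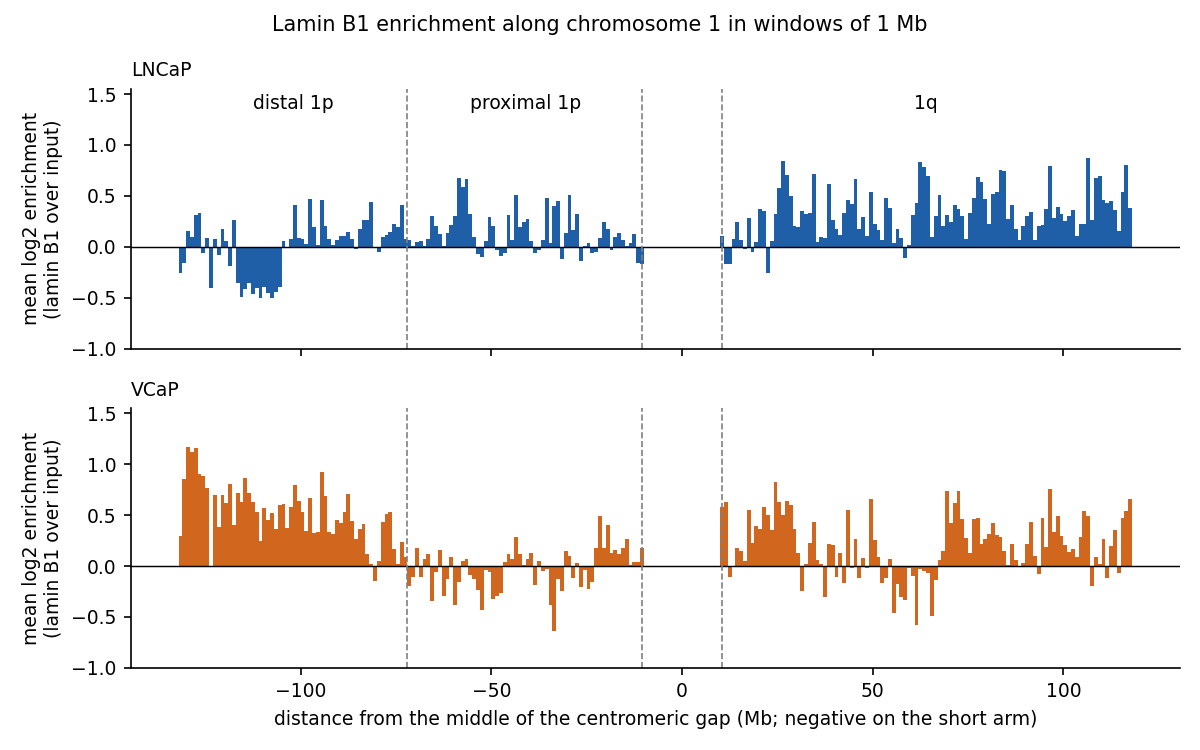
Mean log2 enrichment of lamin B1 over input (vertical axes) in windows of 1 Mb along chromosome 1, for LNCaP (above) and VCaP (below), against the distance in Mb from the middle of the centromeric gap, negative on the short arm; dashed lines mark the limits of the 3 segments. LNCaP shows a flat low block of 12 windows in distal 1p between -0.50 and -0.35, and VCaP is high over most of distal 1p and low over most of proximal 1p.

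The low LNCaP windows formed 1 flat block, singled out after its values were seen. The longest stretch of chromosome 1 outside the associated state in LNCaP ran from 15040001 to 29600000, over 364 adjacent bins and 14.6 Mb. Its median log2 enrichment was -0.37 in LNCaP, with bins from -0.999 to 0.31, and 0.56 in VCaP, with bins from -0.50 to 1.28. VCaP was above LNCaP in 362 of the 364 bins and was in the associated state in 325 of them. Within it, the 12 adjacent windows of 1 Mb from 15 to 27 Mb all had LNCaP means between -0.50 and -0.35, with an SD of 0.053 between windows. The other 46 windows of distal 1p that held at least 20 common bins had a LNCaP mean of 0.13 with an SD of 0.166.

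The block stood apart from the windows beside it in LNCaP. The window of 1 Mb below it had a mean of 0.27 and the window above it had 0.06. VCaP had means of 0.25 to 0.87 inside the block (SD 0.167), 0.41 just below it and 0.61 just above it. Steps at the ends of the stretch were measured as the change in the median from 8 bins before to 8 bins after, with the averaging of the deposited values undone, at the largest step within 10 bins. At the outer end LNCaP went from 0.21 to -0.27 and VCaP from 0.37 to 0.81, in opposite directions. At the inner end of the stretch, which lies beyond the end of the block, both rose, LNCaP from -0.23 to 0.49 and VCaP from 0.12 to 0.95. At the inner edge of the block itself, the last window inside and the first outside had means of -0.39 and 0.06 in LNCaP. In VCaP these means were 0.60 and 0.61. Steps of at least the size at the outer end of the stretch were found at 6.50% of positions in LNCaP and 17.1% in VCaP. Steps of at least the size at its inner end were found at 1.23% and 2.01%. These shares count all positions, while each step is the largest near its end, so they only place its size. Despite the gap in level, the bins inside the stretch rose and fell together in the lines, with a Pearson r of 0.40, and of 0.68 after the mean of each 1 Mb window was subtracted. Elsewhere in the genome 1 other run of at least 12 adjacent windows had LNCaP means of -0.3 or less, and it was 14 windows long. DNA copy number of the lines was not measured apart from the input library, and its part in the block was not tested. Without the stretch, distal 1p had medians of 0.13 in LNCaP and 0.51 in VCaP, a median difference of 0.39, and associated shares of 42.3% and 71.2%. The higher level of VCaP in distal 1p was therefore also present outside the block.

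Proximal 1p was the segment with the weakest enrichment in VCaP. Its VCaP window means ran from -0.24 at 95 to 100 Mb (SD over bins 0.33) and -0.20 at 80 to 85 Mb (0.28) to 0.13 at 85 to 90 Mb (0.27) and 0.27 at 110 to 115 Mb (0.41). In 5 of the 13 windows the VCaP mean was over 0, and in LNCaP 11 were. The highest LNCaP windows were 70 to 75 Mb, with 0.38 (0.31), and 95 to 100 Mb, with 0.29 (0.29), and in both VCaP had no associated bin. The lowest LNCaP windows were the short one nearest the centromeric gap, with -0.16 (0.31) over 34 bins, and 105 to 110 Mb, with -0.04 (0.21). LNCaP was the higher line in 10 windows, and the window of 95 to 100 Mb ranked 6 from the bottom of the 551 for VCaP minus LNCaP, at -0.53.

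1q had the broadest coverage by lamin B1 in LNCaP. In 21 of its 22 windows the LNCaP mean was over 0, and VCaP was over 0 in 19. The highest LNCaP windows were 240 to 245 Mb, with 0.54 (SD over bins 0.33), and 155 to 160 Mb, with 0.50 (0.36). The second of these was also the highest in VCaP, with 0.59 (0.25), followed by 200 to 205 Mb, with 0.53 (0.40). Some windows were covered in LNCaP and largely free in VCaP: at 240 to 245 Mb the associated shares were 92.8% and 19.2%. The lowest LNCaP window lay next to the centromeric gap, at 140 to 145 Mb with -0.11 (0.40) over 54 bins. The next lowest was 150 to 155 Mb, with 0.09 (0.34). LNCaP was the higher line in 17 windows of 1q.

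The longest stretch outside the associated state in VCaP also lay in 1q, from 186280001 to 200880000, over 365 adjacent bins and 14.6 Mb. Its median log2 enrichment was -0.15 in VCaP, with bins from -1.03 to 0.36, and 0.24 in LNCaP, with bins from -0.46 to 1.00. LNCaP was above VCaP in 340 of the 365 bins and was in the associated state in 236. The 2 lowest VCaP windows of 1q fell wholly or mostly in it, 190 to 195 Mb with -0.21 (SD over bins 0.31) and 185 to 190 Mb with -0.20 (0.30). The next window, 195 to 200 Mb, averaged -0.14 in VCaP against 0.48 in LNCaP, so they differed by -0.61. This was the lowest VCaP minus LNCaP value of the 551 windows.

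At the inner end of the stretch both lines fell, and at its outer end both rose. Steps were measured as for the LNCaP stretch. At the inner end VCaP went from 0.34 to -0.38 and LNCaP from 0.69 to 0.11, steps reached at 3.90% and 3.30% of positions. At the outer end VCaP went from -0.23 to 1.02 and LNCaP from 0.11 to 0.50, steps reached at 0.128% and 11.2% of positions. Without the stretch, 1q had medians of 0.31 in LNCaP and 0.28 in VCaP, with a median difference of -0.07. The median gap between the lines in 1q was thus smaller outside this stretch, and the associated share of VCaP without it was 52.5%, against 76.0% in LNCaP.

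**Figure D4:**
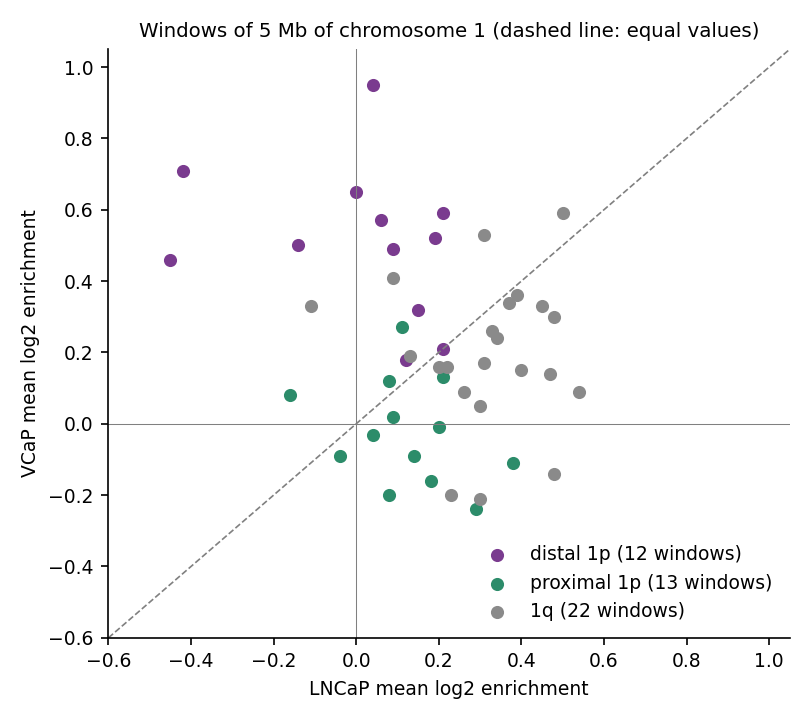
Mean log2 enrichment of the 47 windows of 5 Mb of chromosome 1 in LNCaP (horizontal axis) and VCaP (vertical axis), coloured by segment; each point is 1 window and the dashed line marks equal values. Of the 12 distal 1p windows 11 lie above the line, and 10 of 13 proximal 1p and 17 of 22 1q windows lie below it.

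The windows of chromosome 1 were set among all 551 windows of the genome. The 55 windows with the highest LNCaP means included 10 of the 45 windows of chromosome 1, of which 9 were in 1q and 1 in proximal 1p. Of the 55 lowest in LNCaP, 2 were on chromosome 1, both in distal 1p. The 55 highest in VCaP included 4 windows of distal 1p and 1 of 1q, and the window of 0 to 5 Mb ranked 3 from the top. Among the 55 lowest in VCaP were 3 windows of proximal 1p and 2 of 1q. By difference, 5 distal 1p windows were among the 55 where VCaP lay most above LNCaP. A further 4 windows of proximal 1p and 5 of 1q were among the 55 where LNCaP lay most above VCaP. Each set of 55 holds 10% of all windows. Of the chromosome 1 windows, 22.2% were among the highest and 4.44% among the lowest in LNCaP. In VCaP 11.1% were among the highest and 11.1% among the lowest, near the share over all windows. By difference it was 11.1% where VCaP lay most above LNCaP and 20% where LNCaP lay most above VCaP.

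The agreement between the lines depended on the scale. Across single bins, Pearson r was 0.25 in distal 1p (Spearman rho 0.25, n = 1481), 0.30 in proximal 1p (0.35, n = 1532) and 0.41 in 1q (0.44, n = 2633), against 0.28 over all common bins. Across means of 1 Mb it was 0.04 in distal 1p (n = 60), 0.05 in proximal 1p (n = 62) and 0.29 in 1q (n = 108). Within windows of 1 Mb, after subtraction of each window's mean, it was 0.58, 0.48 and 0.53, against 0.47 over all common bins. On the 23 other chromosomes, each taken whole, the value within windows ranged from 0.14 to 0.62, with a median of 0.46. It was 0.58 on chromosomes 14 and 18, the same as in distal 1p, and 0.57 on 17. Across means of 5 Mb it was -0.28 in distal 1p (n = 12), -0.31 in proximal 1p (n = 13) and -0.01 in 1q (n = 22). In all 3 segments the correlation was higher within windows of 1 Mb than between their means. These correlations are descriptions across bins, which share libraries, sequence and, for neighbours, averaged values.

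The spread of the profile also differed by scale. In distal 1p the SD between means of 1 Mb was 0.27 in LNCaP and 0.29 in VCaP, and the SD within windows was 0.18 and 0.31. In proximal 1p the SD between windows was 0.20 and 0.21, and within windows 0.20 and 0.27. In 1q it was 0.24 and 0.29 between windows, and 0.23 and 0.29 within them. The LNCaP profile of distal 1p was thus the one in which the SD between windows exceeded that within them most. This rested on the low block described above. The other 46 windows of distal 1p with at least 20 common bins had an SD of 0.17 between them in LNCaP.

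A domain is here an unbroken row of associated bins. Over all common bins, LNCaP had 3.38 domains per 10 Mb, with a median length of 720 kb (quartiles 400 and 1400 kb). VCaP had 4.43 per 10 Mb, with a median length of 560 kb (280 and 1200 kb). In distal 1p, proximal 1p and 1q there were 3.88, 4.41 and 4.46 per 10 Mb in LNCaP. In VCaP there were 6.08, 3.43 and 5.98. Distal 1p held 36 domains in VCaP, which together covered 44.8 Mb and had a median length of 740 kb (quartiles 270 and 2030 kb). The 23 in LNCaP covered 18.9 Mb, with a median length of 520 kb (quartiles 280 and 980 kb). The longest VCaP domain there ran from 16040001 to 21120000, over 127 bins. VCaP averaged 0.68 there (SD over bins 0.29), against -0.42 (0.19) in LNCaP. It lay inside the low LNCaP block. The longest LNCaP domain ran from 48040001 to 50960000, over 73 bins. LNCaP averaged 0.33 there (0.18) and VCaP 0.18 (0.38), with 37.0% of the bins associated in VCaP.

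In proximal 1p the order was the other way round. The 27 LNCaP domains covered 24.2 Mb, with a median length of 680 kb (quartiles 400 and 1020 kb), and the 21 VCaP domains covered 9.36 Mb, with a median length of 360 kb (240 and 520 kb). The longest LNCaP domain, from 72600001 to 77560000 over 124 bins, averaged 0.52 in LNCaP (SD over bins 0.25) and -0.04 in VCaP (0.26), and 7.26% of its bins were associated in VCaP. The longest VCaP domain was 1600 kb, from 109760001 to 111360000, with means of 0.51 (0.31) in VCaP and 0.12 (0.16) in LNCaP. Stretches without association were long in VCaP, up to 275 adjacent bins from 75680001 to 86680000.

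In 1q, the 47 LNCaP domains covered 78.4 Mb. Their median length was 1120 kb (quartiles 460 and 2080 kb), and 25 of them reached 1 Mb, against 350 of 965 over the genome. The 63 VCaP domains there covered 47.6 Mb, with a median length of 400 kb (200 and 900 kb). Of these 14 reached 1 Mb, against 387 of 1267 over the genome. The longest LNCaP domain ran from 227560001 to 234560000, over 175 bins, with means of 0.42 (SD over bins 0.25) in LNCaP and 0.36 (0.33) in VCaP, and 65.1% of it was associated in VCaP. The longest VCaP domain ran from 155560001 to 161760000, over 155 bins, with means of 0.60 (0.20) in VCaP and 0.51 (0.30) in LNCaP, and 87.1% of it was associated in LNCaP. Both were thus mostly shared, unlike the longest domains of the short arm. Borders of the state in LNCaP had a VCaP border of the same direction within 80 kb in 29 of 85 cases in 1q (34.1%), 13 of 52 in proximal 1p (25%) and 10 of 43 in distal 1p (23.3%), against 24.1% over the genome. Taken from the VCaP side, the matched shares were 27.4% of 106 borders in 1q, 31.7% of 41 in proximal 1p and 16.4% of 61 in distal 1p, against 18.9%, so which segment matched most depended on the line counted from.

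Regions associated in 1 line only were taken as runs of at least 5 such bins. Over all common bins, 23.8% were associated in VCaP only and 17.2% in LNCaP only, counted without the minimum of 5 bins. The number of such regions over the genome was not counted, and the segments differ in length. Distal 1p held 29 VCaP-only regions over 29.5 Mb (49.8% of the segment), and 6 LNCaP-only regions over 4.28 Mb (7.2%). The mean difference was past 2 noise SDs of a region's mean in 27 and 2 of them. This describes their size only, since the states were called from the same values. The noise SD of a region's mean is smaller than that of a single bin's difference. It falls with the number of bins, for example from 0.21 at 5 bins to 0.08 at 36. Bins of 1 library pair are not replicates, so long regions pass with small differences and passing is not a test. The 3 VCaP-only regions with the largest difference were those from 12880001 to 13240000, with means of -0.21 in LNCaP and 1.00 in VCaP, from 15040001 to 15920000, with -0.34 and 0.80, and from 22480001 to 23360000, with -0.30 and 0.83. The first of these had 5 of its 9 bins beside a gap of the table, and the last 2 lay in the low LNCaP block. The 3 LNCaP-only regions with the largest difference lay close together, from 49280001 to 50720000, with 0.37 in LNCaP and -0.08 in VCaP, from 51480001 to 51680000, with 0.28 and 0.00, and from 48640001 to 49040000, with 0.22 and -0.05. The first of these differed by -0.46 (noise SD 0.08). The other two, at -0.28 (0.21) and -0.26 (0.15), did not pass 2 noise SDs.

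Proximal 1p held 23 LNCaP-only regions over 18.4 Mb (30.0% of the segment), 16 of them past 2 noise SDs of the region's mean. It held 8 VCaP-only regions over 3.68 Mb (6.0%), 6 of them past that limit. The LNCaP-only region from 98000001 to 98840000 averaged 0.48 in LNCaP against -0.64 in VCaP, and so differed by -1.11 (noise SD 0.10). It was followed by 103480001 to 103800000, with 0.42 and -0.26 and 5 of 8 bins beside a gap, and by 72600001 to 75320000, with 0.61 and -0.06 over 68 bins. The VCaP-only regions were weaker. They ran from 113240001 to 113440000, with 0.05 in LNCaP and 0.57 in VCaP, from 119960001 to 120200000, with 0.09 and 0.51, and from 109760001 to 111000000, with 0.07 and 0.48.

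1q held 47 LNCaP-only regions over 35.5 Mb (33.7% of the segment), 24 of them past 2 noise SDs of the region's mean. It held 10 VCaP-only regions over 5.76 Mb (5.5%), 5 of them past that limit. The leading LNCaP-only region was also long, from 193280001 to 197480000 over 105 bins, with means of 0.70 (SD over bins 0.22) in LNCaP and -0.18 (0.29) in VCaP, and lay inside the VCaP stretch without association. The next were 243520001 to 244160000, with 0.51 and -0.32, and 210040001 to 210440000, with 0.78 and 0.03. Of the 3 leading VCaP-only regions in 1q, those from 143080001 to 143560000 (-0.16 in LNCaP and 1.09 in VCaP) and from 142520001 to 142920000 (0.11 and 0.68) lay beside the centromeric gap, with 10 of 12 and 8 of 10 bins beside a gap. The region from 153640001 to 155360000, with -0.14 and 0.51 over 43 bins, had none.

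Other long chromosomes were split at the same distances. The limit was chosen on the values of chromosome 1 and not on theirs, so the ranks of chromosome 1 describe that choice. On the 13 chromosomes of at least 120 Mb, the first 60 Mb were compared with the next 60 Mb. In VCaP the next stretch was lower by 0.54 on chromosome 1 (difference -0.54), the lowest of the 13 values. On the other 12 the difference ranged from -0.41 to 0.05 with a median of -0.14, so a fall was common. In LNCaP it was 0.06 on chromosome 1, 3 from the top, with a range of -0.49 to 0.26 on the others. The first 60 Mb of chromosome 1 had the highest VCaP median of the 13, at 0.52, against 0.09 to 0.36 on the others. Their VCaP minus LNCaP difference was 0.50, also the highest, against -0.06 to 0.25. The next 60 Mb of chromosome 1, with -0.16, lay within the range of the others, -0.21 to 0.27. Shorter chromosomes were not part of this comparison, and some of them, taken whole, were higher. Their VCaP medians reached 0.71 on chromosome 19, 0.67 on 22 and 0.58 on 16, but 0.18 on 21. The VCaP median lay above that of LNCaP by 0.75 on 22, 0.68 on 19 and 0.58 on 21, but by 0.045 on 18.

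**Figure D5:**
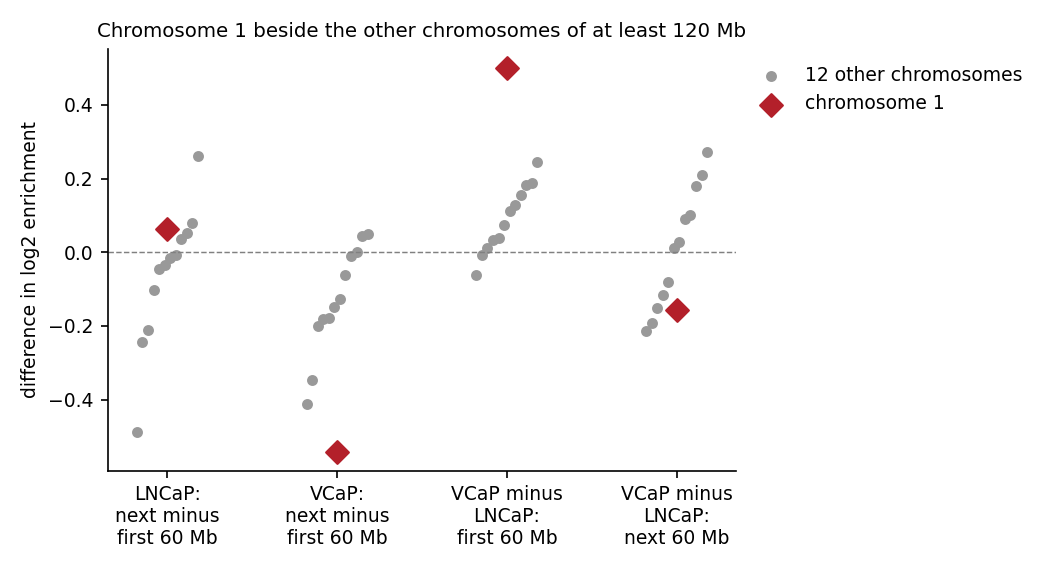
Differences in median log2 enrichment (vertical axis) on chromosome 1 (red diamond) and the 12 other chromosomes of at least 120 Mb (grey points, spread sideways in order of value): next 60 Mb minus first 60 Mb in LNCaP and in VCaP, and VCaP minus LNCaP in the first and the next 60 Mb. Chromosome 1, on whose values the limit of 60 Mb was chosen, stands outside the others in VCaP (-0.54) and in the first 60 Mb (0.50). It lies within their range in the remaining columns.

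Taken whole, chromosome 1 hid these contrasts. Its median was 0.18 in LNCaP, 2 from the top of the 24 chromosomes, and 0.21 in VCaP, 12 from the top, and 53.8% and 45.1% of its bins were associated. The line medians of the whole chromosome differed by 0.03, because distal 1p and the other segments went opposite ways. Pearson r across its bins was 0.20, 5 from the bottom of the 24, lower than in each of its 3 segments.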

How the data were processed

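The authors deposited, for each line, a table of log2 ratios of the lamin B1 library to its input, in 40 kb bins, and a table of state labels. The submitters' processing notes name hg19 and STAR; the scaling of ChIP to input and the filters are not given in the sources used here. Depth is unknown, so no counting interval is given.

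Chromosome 1 had 5686 entries in LNCaP and 5682 in VCaP. Of these, 2 had no value in each line, and 25 and 26 were wider than 40 kb, 5 of them over 1 Mb in the centromeric gap. Another 12 and 7 had no 40 kb partner in the other line, and 1 common bin, from 121480001 to 121520000, lay between the segments (-0.79 in LNCaP and 1.33 in VCaP). The bins of the segments nearest the gap, the 5 last of proximal 1p and the 5 first of 1q, had medians of 0.05 and 0.16 in LNCaP. In VCaP their medians were 0.07 and 0.79.

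Each deposited value behaves as the mean of its entry and the 2 before it: undoing this took the median absolute value of wide entries from 0.21 to 0.01 in LNCaP and from 0.33 to 0.01 in VCaP. Positions may thus lie about 40 kb downstream, and neighbours are dependent. Noise is a scaled median absolute difference of neighbouring bins; for differences between lines, of bins 3 apart in each line, combined (0.27, or 0.20 taken from the differences themselves).

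Values were computed in Python 3.11.15 with numpy 2.4.6, pandas 2.3.3 and matplotlib 3.10.9, and the steps were tested on simulated data. Text names, per segment and line, the 2 highest and 2 lowest 5 Mb windows, the longest domain and the 3 regions associated in 1 line only with the largest difference. The segments, rules and lists were chosen with earlier results of these data known. Planned gene lists were not analysed here, as the gene table at hand is of another build.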

Additional observations from a re-analysis of the deposited data

Results flagged for a closer look

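The contrast between the segments of chromosome 1 went opposite ways in the lines in 2 of 3 cases. Proximal 1p minus distal 1p was 0.06 in LNCaP and -0.54 in VCaP, and 1q minus distal 1p was 0.26 in LNCaP and -0.30 in VCaP. The median of proximal 1p also had opposite signs, 0.10 in LNCaP and -0.02 in VCaP. Without the longest stretch of distal 1p outside the associated state in LNCaP, proximal minus distal 1p was -0.025 there, the same sign as in VCaP. With 1 library pair per line, none of these differences between the lines was tested.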

How the results depend on the processing

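For 38 results 140 alternative values were obtained, of which 93 stayed within the limit set for a move, 45 moved past it and 2 changed sign. The limit for log2 values was the noise of a bin from neighbouring bins, which is a low estimate. It was the 95% interval over bins for shares and correlations and a factor of 1.5 for domain counts. Small medians can thus change by a large part of their size within the limit. The intervals for shares and correlations use bins of a single library pair per line as samples, although bins within a domain are dependent. They are not sampling intervals between libraries and serve only to sort the values. The numbers of values that stayed or moved depend on these limits. Those that changed sign were the LNCaP median of distal 1p, at -0.016 when centred, and proximal minus distal 1p in LNCaP, at -0.025 without the longest stretches outside the associated state (chosen after seeing the data). With means over bins the latter was 0.14. Without the stretches 1q minus distal 1p in LNCaP was 0.18. Centred on the genome medians, VCaP had 0.33 in distal 1p, -0.21 in proximal 1p and 0.020 in 1q, and the line differences 0.37, -0.28 and -0.26 (0.34, -0.24 and -0.26 after quantile normalization). With the centring, and without quantile normalization, bins beyond noise were 34.8% and 2.30% in distal 1p (VCaP and LNCaP higher). They were 24.2% with LNCaP higher in proximal 1p, and 1.63% and 25.1% in 1q. Divided by the genome interquartile range, which changes the unit, the contrasts were -0.89 for proximal minus distal 1p in VCaP, 0.55 and -0.50 for 1q minus distal 1p and 0.43 and 0.39 for 1q minus proximal 1p (LNCaP and VCaP).

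The call of the associated state moved shares most. Enrichment over 0 gave 55.3%, 67.0% and 85.8% in LNCaP and 87.7%, 47.2% and 68.8% in VCaP (distal 1p, proximal 1p, 1q). Enrichment over the genome median gave 48.3%, 56.4% and 80.6% in LNCaP, and 23.8% in proximal 1p and 52.2% in 1q in VCaP. Taking the highest 40% of bins gave 68.7% for distal 1p and 40.2% for 1q in VCaP and 70.9% for 1q in LNCaP. Under each of these calls VCaP kept the order distal 1p, 1q, proximal 1p, and LNCaP had its highest share in 1q. A running median of 5 bins over 0 gave 48 and 68 LNCaP domains in distal and proximal 1p, and 64 and 98 VCaP domains in proximal 1p and 1q. Correlations of 1 Mb means were 0.036, 0.055 and 0.289, and of deviations within them 0.58, 0.48 and 0.53, as the report gives. The cause of these changes was not tested. No paired analysis was possible because there is a single library per group, and the noise between bins is the only limit on single regions.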
